A study of Mus musculus with 12 samples.

Results

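The 38 genes described here encode the steps from glucose uptake to lactate release and a set of genes known for their response to low oxygen. They were chosen by name: a gene was taken where its symbol equals the gene name of an array probe, and its brightest probe over the arrays stood for it. All 38 were found among 30157 gene names on the array. The filter on dim probes kept 18646 genes, and all 38 were among them. Adm passed it through the culture and transfer groups alone, since none of its naive or immunised arrays was well above background. Hk2 and Vegfa were well above background on 2 of the 3 naive arrays and on all others.

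Glycolysis splits glucose into pyruvate, and lactate dehydrogenase turns pyruvate into lactate, which monocarboxylate transporters carry out of the cell. T cells are known to raise this pathway when they are activated, and Th17 cells, the CD4+ subset that makes IL-17, are known to depend on it. In low oxygen the factor HIF-1 is stabilised and binds short motifs with the core ACGTG or GCGTG near genes such as Vegfa and many glycolytic enzymes. HIF-1 is also known to be active in Th17 cells with normal oxygen.

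RNA of mouse CD4+ T cells was hybridised to 12 single-colour arrays, in 4 groups of 3. The naive group held splenic CD4+ T cells of the B6.2d2 line, whose transgenic T cell receptor recognises the myelin protein MOG. For the culture group, such cells were turned into Th17 cells in vitro. The transfer group came from Rag1-/- hosts, which lack T and B cells of their own, given cultured B6.2d2 Th17 cells, and its CD4+ T cells were re-isolated from the central nervous system, or CNS, when experimental autoimmune encephalomyelitis (EAE), a mouse model of multiple sclerosis, was at its peak. The immunised group came from wild-type C57BL/6 mice given the peptide MOG35-55, and CD4+ T cells were likewise isolated from the CNS at peak disease. The immunised cells were never in the culture, so a rise, fall or change from culture to them is a difference between separate cells. The groups other than naive are called later groups, which gives the immunised one no place in time. The labels give neither the animals' age, nor whether animals were pooled, nor how pure the cells were. Receptor, strain, host and history (culture and transfer, or immunisation in the animal) differ together between the 2 CNS groups and cannot be told apart. The replicates came from 3 independent experiments, and each replicate number was also 1 slide and 1 scan. Each group had its own position on the slides, so group and position cannot be told apart.

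Levels are log2 processed signals minus the 75th percentile of the same array, so a level of 0 equals that percentile and a difference of 1 is a 2-fold change. Differences between groups are given ± the SE of the limma fit, with 3 arrays per group. Levels of different genes come from different probes and were not set against each other. The arrays had 57.1 to 64.9% of spots well above background, and replicates correlated at 0.954 to 0.991. T cell genes were present in all groups: all 9 measured T cell core genes (Cd3e, Lck and others) were well above background on all 12 arrays. Their mean level was 5.10 to 5.35 in the naive, 5.05 to 5.20 in the culture, 3.81 to 4.44 in the transfer and 4.47 to 5.09 in the immunised arrays. Genes of macrophages and monocytes (17 measured, with Lyz2 and Csf1r) were strong in the CNS groups. The log2 of their summed signals, in which the brightest genes weigh most, was 5.68 to 6.84 in naive and 4.97 to 5.80 in culture arrays. It was 9.65 to 10.2 in transfer and 9.29 to 10.2 in immunised arrays. Itgam went the other way, with 5.47, 4.40 and 6.52 in naive, 3.61, 2.95 and 2.95 in transfer, and 4.28, 4.37 and 3.48 in immunised arrays. Emr1, C1qc, Mrc1 and Ms4a7 were on no naive array well above background, and C1qa and C1qc on no culture array. Of 8 microglia genes, all were well above background on every CNS array, but so were 5 on every naive array and 5 on every culture array. Among them, Siglech had 6.21 to 6.87 in naive and 6.13 to 6.48 in CNS arrays. The log2 of the summed signals of neutrophil genes was 6.68 to 7.74 in naive and 6.40 to 6.59 in culture arrays. It was 6.48 to 7.92 in transfer and 9.01 to 9.33 in immunised arrays. Csf3r alone had 6.74, 6.64 and 7.73 in naive and 6.26, 5.97 and 6.40 in transfer arrays. S100a8 had 5.35, 3.32 and 0.69 on the transfer arrays, a spread that the sum does not show. In such bulk RNA, fewer cells of a type and less RNA per cell cannot be told apart.

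Promoter sequences are shown for 10 members that carry the main patterns described here: Hk2, Aldoc, Pgk1, Ldha and Slc16a3, which were all higher in culture, Pdk1, which was lower in all later groups, and the hypoxia genes Vegfa, Adm, Egln3 and P4ha2, which part company in the CNS. Capitals mark ACGTG or GCGTG on either strand, so CACGT and CACGC are the reverse strand, and CACGTG holds an overlapping match on each strand.
Hk2: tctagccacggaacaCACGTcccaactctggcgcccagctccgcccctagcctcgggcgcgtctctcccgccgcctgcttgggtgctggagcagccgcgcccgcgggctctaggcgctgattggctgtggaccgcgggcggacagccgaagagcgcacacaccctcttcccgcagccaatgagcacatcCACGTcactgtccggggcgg
Aldoc: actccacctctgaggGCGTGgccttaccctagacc
Pgk1: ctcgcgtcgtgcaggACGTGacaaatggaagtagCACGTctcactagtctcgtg
Ldha: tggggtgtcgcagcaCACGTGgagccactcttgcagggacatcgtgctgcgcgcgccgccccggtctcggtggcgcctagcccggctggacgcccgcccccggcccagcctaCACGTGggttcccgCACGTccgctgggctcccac
Slc16a3: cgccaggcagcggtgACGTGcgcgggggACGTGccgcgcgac
Pdk1: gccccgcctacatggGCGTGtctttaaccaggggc
Vegfa: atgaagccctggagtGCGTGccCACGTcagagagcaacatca
Adm: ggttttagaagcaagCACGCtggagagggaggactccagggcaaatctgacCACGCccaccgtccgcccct
Egln3: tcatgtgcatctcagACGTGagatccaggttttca
P4ha2: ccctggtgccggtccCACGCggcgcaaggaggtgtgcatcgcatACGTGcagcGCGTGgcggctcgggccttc
Each is a run of bases around its motifs within the 250 bases before a transcription start, 5′ to 3′ on the gene's strand, from RefSeq on GRCm38.p6. The positions are Hk2 chr6:82774487-82774695 (minus strand), Aldoc chr11:78323008-78323042 (plus strand), Pgk1 chrX:106186935-106186988 (plus strand), Ldha chr7:46845644-46845789 (plus strand), Slc16a3 chr11:120949025-120949066 (plus strand), Pdk1 chr2:71873131-71873165 (plus strand), Vegfa chr17:46025355-46025396 (minus strand), Adm chr7:110627552-110627622 (plus strand), Egln3 chr12:54204084-54204118 (minus strand), P4ha2 chr11:54100802-54100874 (plus strand). For genes with several starts, the start with the most motifs is shown, and Vegfa and Pdk1 each had 2 windows, of which 1 held no motif. RefSeq windows were matched for 35 of the 38 members, and Slc2a3, Bnip3l and Ndrg1 were not matched. At least 1 motif was found for 32 of these 35 (91.4%), against 57.4% of the 10362 tested genes with a window and 41.5% of all 27025 genes with one. Counted by window, ACGTG was in 24 of the 48 member windows and in 16.6% of all 32851 windows, and GCGTG in 62.5% and 28.2%. The windows' median GC content was 60.4% for members, 58.8% for tested genes and 52.4% for all. Gpi1, Tpi1 and Eno2 had neither motif in any window. The shares are a description of letters, and no binding was measured.

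Cultured Th17 cells carried more RNA of most of these genes than naive cells. Of the 38 genes, 27 were higher in culture and 2 lower (limma, Benjamini-Hochberg adjusted p under 0.05). Over all tested genes, 19.2% were called higher and 21.3% lower. The median difference of the members was 2.01, against -0.11 over all genes, and it was 1.42, 2.20 and 2.70 within the 3 slides. Members rose in glucose uptake, among the hexokinases, in upper and lower glycolysis and in lactate export, and 9 of the 12 hypoxia genes rose as well. Cell cycle genes also differed between these groups: 12 of 16 were higher in culture, with a median difference of 2.89.

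**Figure D1:**
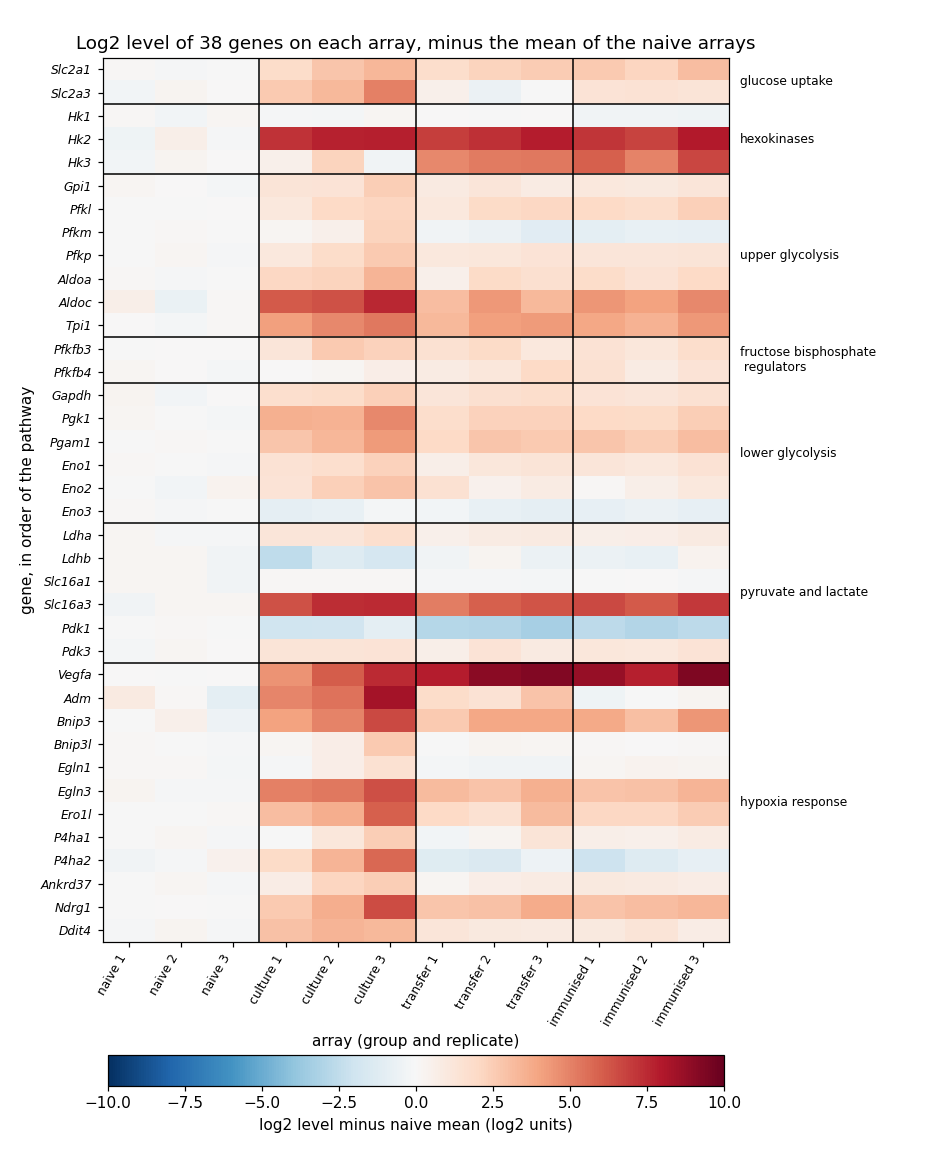
Colour shows the log2 level of each of the 38 genes (rows, in order of the pathway) on each of the 12 arrays (columns), minus the mean of the 3 naive arrays. Red fills most culture rows, Vegfa and Hk3 are redder in the CNS groups than in culture, and Pdk1 is blue in all 3 later groups.

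The samples from the inflamed CNS were also compared with naive cells. There, 24 genes were higher and 2 lower in the transfer group, with 20.5% of all genes called higher and 28.1% lower. In the immunised group 25 were higher and 2 lower, with 19.9% and 29.9% of all genes called. The members' medians were 1.26 in the transfer and 1.24 in the immunised group. Hk3 and Pfkfb4, which were not called in culture, are among the genes higher in both. Macrophage and monocyte genes were higher in the same comparisons (16 of 17 in each, with 1 lower and medians of 8.84 and 8.42), and their part was not tested. The lower ones were Pdk1 and Eno3, and their count was 1 to 3 in transfer and 1 to 5 in immunised cells with single arrays left out (5 without culture replicate 3). Scaled to T cell core genes, as described for culture, 29 were higher and 1 lower in transfer and 26 and 1 in immunised cells. All genes called in transfer then numbered 10537 of 18646, with 89.4% of them higher, against 9050 and 42.2% otherwise. In immunised cells they numbered 6508, with 68.9% of them higher, against 9283 and 40% otherwise. These comparisons share the naive arrays with the first, so they are not independent of it.

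Set against culture, more members were called lower than higher in the CNS. In the transfer group 17 were lower and 4 higher, with 15.9% of all genes called lower and 12.7% higher. The median was -0.90, and -0.49, -0.70 and -1.44 within the slides. In the immunised group 12 were lower and 4 higher, with 18.4% and 13.5% of all genes called. The median there was -0.63. Both comparisons share the culture arrays.

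T cell genes were lower in the same samples, and their part in the result was not tested. Scaling to them moves every gene of an array by the same amount, so it cannot tell that part. The 9 T cell core genes had a median difference of -1.04 between transfer and culture (6 lower), and of -0.49 between immunised and culture (4 lower, 1 higher). With each array scaled to these 9 genes, an alternative chosen after seeing the data, 6 members were lower and 7 higher in transfer than culture. The members' median was then 0.01, against 0.80 over all genes. Without that scaling these medians were -0.90 and -0.11. That scaling raised the median of all genes by 0.91. It called 9681 of the 18646 tested genes, with 94.0% of them higher, against 5330 and 44.3% otherwise. Between immunised and culture it gave 8 members lower and 4 higher, with a shift of 0.39 in the median of all genes. There it called 4084 genes, with 74.5% of them higher, against 5958 and 42.4% otherwise. Slc2a3, Aldoc, Adm, Egln3, P4ha2 and Ddit4 were lower in both CNS groups under either scaling.

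The third culture array stood apart from the other culture arrays in these genes, and limma gave it the lowest array weight of the 12, 0.156, over all genes. It had the highest level of the 3 culture arrays for 34 of the 38 members and for 11 of the 12 hypoxia genes, and for 44.6% of all tested genes. Its members lay a median of 1.02 above the mean of the other culture arrays, against 0.07 over all genes. The third array was also the highest of its group for 21 members in transfer (median 0.30 above the others) and for 28 in immunised cells (0.38), but for 8 in naive cells. The first array was lowest for 33 members in culture and 22 in transfer. Without the third culture array, 27 members were still higher and 3 lower in culture than naive, with a median of 1.81. The members called lower in transfer than culture then numbered 9, with a median of -0.50, and those lower in immunised than culture 10, with a median of -0.33. Of all 18646 tested genes, 3064 were then lower in transfer than culture and 3200 lower in immunised than culture. With all arrays these were 2970 and 3433. Without transfer replicate 1, 2 or 3 the members lower in transfer than culture numbered 10, 10 and 11. Without culture replicate 1, 20 were lower in immunised than culture, and without immunised replicate 3, 1 was higher. For these last settings the number of all genes called is not given.

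**Figure D2:**
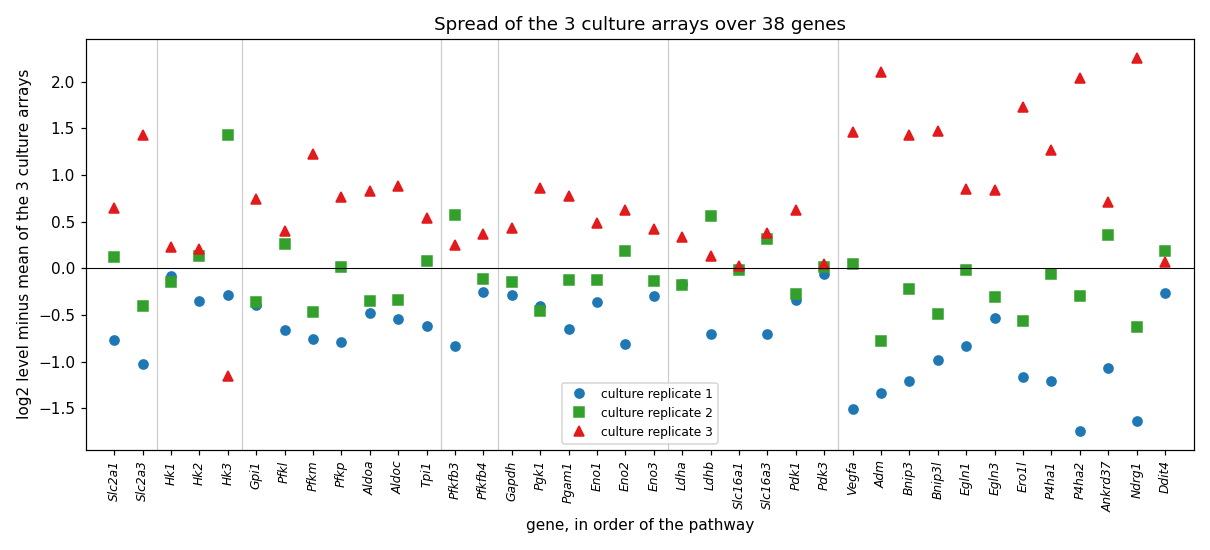
Each point is the log2 level of a gene on 1 culture array minus the mean of the 3 culture arrays, with genes in order of the pathway along the x axis. Replicate 3 (red triangles) lies highest for 34 genes, with the widest gaps among the hypoxia genes, and lowest for Hk3.

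Glucose uptake depends on the transporters GLUT1 (Slc2a1) and GLUT3 (Slc2a3). Both rose in culture, and they separated in the CNS. Slc2a3 had levels of 0.47, 1.03 and 0.79 in naive, 3.38, 4.01 and 5.84 in culture, 1.23, 0.19 and 0.76 in transfer, and 2.11, 2.20 and 2.07 in immunised arrays. The culture arrays lay above all others, and the transfer arrays overlapped the naive ones. The difference was 3.64 ± 0.52 (SE, n = 3 per group, limma adjusted p = 0.000327) from naive to culture and -3.68 ± 0.52 (adjusted p = 0.000565) from culture to transfer. Slc2a1 was not called in either CNS group against culture, and its means were 1.44 ± 0.11, 4.08 ± 0.72, 3.59 ± 0.38 and 4.06 ± 0.47 (SD, n = 3) in naive, culture, transfer and immunised arrays. On the same array the difference Slc2a1 minus Slc2a3 changed by 3.19 from culture to transfer, without overlap of the groups, and no scaling of arrays moves that value.

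Hexokinases trap glucose in the cell as glucose 6-phosphate. Hk2, the inducible form, was near background in naive arrays and high in all other groups. Its levels were -5.71, -4.68 and -5.39 in naive, 1.96, 2.44 and 2.51 in culture, 1.65, 2.07 and 2.60 in transfer, and 1.86, 1.53 and 2.67 in immunised arrays. The naive arrays lay far below, and the other 3 groups overlapped. Most macrophage and monocyte genes were higher in the CNS samples, and their part in the Hk2 level there was not tested. The rise of 7.56 ± 0.37 in culture (limma adjusted p = 4.5e-07) is 189-fold, with 1 of the 3 naive arrays not well above background, and the difference of transfer from culture was -0.20 ± 0.37 (limma adjusted p = 0.732).

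Hk3, the form known from myeloid cells, followed another course. It had levels of -3.74, -3.26 and -3.49 in naive, -3.01, -1.29 and -3.87 in culture, 1.28, 1.70 and 1.80 in transfer, and 2.46, 1.45 and 3.20 in immunised arrays. All CNS arrays lay above all naive and culture arrays. The rise from culture was 4.32 ± 0.59 in transfer (limma adjusted p = 0.000483) and 5.09 ± 0.59 in immunised cells (limma adjusted p = 0.000147). Macrophage and monocyte genes rose in the same samples (16 of 17 called in transfer against culture, median 6.34), and their part in the Hk3 signal was not tested. Hk1, the widely expressed form, was called in no comparison, with group means of 6.89 to 7.27 by its brightest probe. Its other 2 probes differed from that one by being higher in culture, by 1.11 and 0.71, so its course is uncertain.

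The 7 genes of upper glycolysis cover glucose phosphate isomerase, the phosphofructokinases, the aldolases and triose phosphate isomerase. All but Pfkm were called higher in culture than naive, from 1.70 for Gpi1 to 6.69 for Aldoc, where 19.2% of all genes were higher. The same 6 of 7 count was found in each CNS group against naive cells, with 20.5% of all genes higher in transfer and 19.9% in immunised cells. Aldoc, aldolase C, had levels of -0.59, -1.80 and -1.04 in naive, 5.0, 5.20 and 6.43 in culture, 1.93, 3.19 and 2.13 in transfer, and 3.30, 2.88 and 3.64 in immunised arrays. The culture arrays were highest, the naive arrays lowest, and the CNS arrays lay between with no overlap of either. Its difference was 6.69 ± 0.46 in culture (103-fold, limma adjusted p = 3.33e-06) and -3.13 ± 0.46 from culture to transfer (limma adjusted p = 0.000766).

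The other aldolase, Aldoa, moved less: 2.58 ± 0.40 in culture and -1.26 ± 0.40 from there to transfer (limma adjusted p = 0.0397), a call lost under 13 of 26 alternatives. Between naive and culture the difference Aldoc minus Aldoa within an array grew by 4.10, and from culture to transfer it shrank by a change of -1.87, both without overlap. Tpi1 reached 5.38, 6.08 and 6.54 in culture from 1.37, 1.13 and 1.39 in naive cells. It held 4.58, 5.37 and 5.57 in transfer and 5.19, 4.75 and 5.62 in immunised arrays, which overlapped culture. The liver-type and platelet-type phosphofructokinases Pfkl and Pfkp rose together in culture, by 1.74 ± 0.33 and 1.85 ± 0.31. The muscle-type Pfkm had 0.46, 0.76 and 2.45 in culture and lay at or under -0.08 on all 6 CNS arrays. Its fall from culture was -1.66 ± 0.43 in transfer (limma adjusted p = 0.0158) and -1.81 ± 0.43 in immunised cells (limma adjusted p = 0.00934). Scaled to the T cell core genes, only the fall in immunised cells was called, and the change in transfer was -0.75 (limma adjusted p = 0.166).

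Fructose 2,6-bisphosphate, made by the PFKFB enzymes, is the main activator of phosphofructokinase. Pfkfb3 rose in culture and Pfkfb4 in the CNS. Pfkfb3 had 0.89, 0.98 and 1.01 in naive, 2.19, 3.59 and 3.27 in culture, 2.49, 2.84 and 2.03 in transfer, and 2.43, 2.12 and 2.74 in immunised arrays. Naive arrays were lowest and the later groups overlapped (2.06 ± 0.34 in culture, limma adjusted p = 0.000883). Pfkfb4 had -0.12, -0.25 and -0.47 in naive, -0.24, -0.10 and 0.38 in culture, 0.57, 0.85 and 1.72 in transfer, and 1.25, 0.57 and 1.05 in immunised arrays. All CNS arrays lay above all culture arrays, with rises of 1.03 ± 0.30 in transfer (limma adjusted p = 0.0275) and 0.95 ± 0.30 in immunised cells (limma adjusted p = 0.0366). Each of these calls was lost under 6 of 26 alternatives, with adjusted p up to 0.0906 and 0.126. Its second probe was well above background on 0 of 12 arrays. Most macrophage and monocyte genes were higher in the CNS samples, and their part in the Pfkfb4 level there was not tested.

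Lower glycolysis, from glyceraldehyde phosphate dehydrogenase to enolase, rose in culture for 5 of its 6 genes, against 19.2% of all genes. Pgk1, phosphoglycerate kinase, had 3.92, 3.68 and 3.50 in naive, 7.23, 7.18 and 8.5 in culture, 5.43, 5.98 and 6.00 in transfer, and 5.73, 5.65 and 6.16 in immunised arrays. The order naive, CNS, culture held without overlap. The rise was 3.94 ± 0.34 (limma adjusted p = 1.36e-05) and the change from culture -1.83 ± 0.34 in transfer and -1.79 ± 0.34 in immunised cells. Scaled to the T cell core genes, only the change in immunised cells was called, and that in transfer was -0.92 (limma adjusted p = 0.0876). The array file places this probe at chr3:57906830-57906894 of mm9, while RefSeq has Pgk1 on chromosome X, so it may read a copy of the gene and its identity is uncertain.

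Pgam1, phosphoglycerate mutase, rose by 3.46 ± 0.34 in culture, Gapdh by 1.96 ± 0.23 and the main enolase Eno1 by 1.80 ± 0.25. Gapdh, often taken as a reference gene, was 3.88-fold higher in culture by its brightest probe and 1.56 to 3.10 higher on the log2 scale by its other 7 probes, of which the files place 1 on chromosome 8 and 1 on chromosome 7, so some may read copies of the gene. Eno2, the enolase known from neurons, rose by 2.20 ± 0.40. Eno3, the muscle enolase, had 1.29, 1.05 and 1.10 in naive, 0.26, 0.42 and 0.98 in culture, 0.89, 0.39 and 0.23 in transfer, and 0.32, 0.56 and 0.32 in immunised arrays. The naive arrays lay above all others, with differences of -0.64 ± 0.23 in transfer (limma adjusted p = 0.037) and -0.75 ± 0.23 in immunised cells (limma adjusted p = 0.019). Scaled to the T cell core genes, they were 0.33 (limma adjusted p = 0.305) and -0.29 (limma adjusted p = 0.434). The transfer call was lost under 10 of 26 alternatives, the replicate block among them, and the immunised call under 4.

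At the end of the route, the lactate exporter MCT4 (Slc16a3) rose with Hk2. Its levels were -2.62, -2.06 and -2.10 in naive, 4.12, 5.14 and 5.20 in culture, 2.84, 3.69 and 4.02 in transfer, and 4.36, 3.91 and 4.77 in immunised arrays. The naive arrays lay far below the rest, and immunised arrays overlapped both other later groups. The rise was 7.08 ± 0.38 in culture (135-fold, limma adjusted p = 7.55e-07), and its second probe gave 7.33. The change from culture to transfer was -1.30 ± 0.38 (limma adjusted p = 0.0269), which was lost under 7 of 26 alternatives, among them leaving out the third culture array (adjusted p = 0.0767). MCT1 (Slc16a1) was called in no comparison, with group means of -2.91 to -2.68. Most macrophage and monocyte genes were higher in the CNS samples, and their part in the Slc16a3 level there was not tested.

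The 2 lactate dehydrogenase subunits moved in opposite directions in culture. Ldha, the subunit that favours lactate formation, rose by 1.36 ± 0.19 (limma adjusted p = 0.000314). Ldhb, the subunit that favours pyruvate, had 2.20, 2.16 and 1.62 in naive, -0.54, 0.72 and 0.29 in culture, 1.67, 2.27 and 1.41 in transfer, and 1.43, 1.27 and 2.36 in immunised arrays. All culture arrays lay below all others, which overlapped. The fall was -1.84 ± 0.38 in culture (limma adjusted p = 0.00352). Against culture, Ldhb was 1.63 ± 0.38 higher in transfer (limma adjusted p = 0.0106) and 1.53 ± 0.38 higher in immunised cells (limma adjusted p = 0.0125). Within an array, Ldha minus Ldhb grew by 3.20 from naive to culture and changed by -2.25 from culture to transfer, both without overlap.

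Pyruvate dehydrogenase kinases hold pyruvate back from the mitochondria. Pdk1, which is known as a target of HIF-1, was lower than naive in every other group. Its levels were 2.80, 2.95 and 2.80 in naive, 0.88, 0.95 and 1.85 in culture, -0.01, -0.06 and -0.51 in transfer, and 0.25, -0.07 and 0.22 in immunised arrays. Naive arrays were highest, culture arrays next and all CNS arrays lowest. The differences were -1.63 ± 0.26 in culture (limma adjusted p = 0.000619) and -1.42 ± 0.26 from culture to transfer (limma adjusted p = 0.00243). Scaled to the T cell core genes, Pdk1 stayed lower than naive in all later groups. Its changes from culture were then not called, at -0.50 in transfer (limma adjusted p = 0.205) and -0.70 in immunised cells (limma adjusted p = 0.161). Pdk3 went the other way in culture, by 1.31 ± 0.20 (limma adjusted p = 0.000543).

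**Figure D3:**
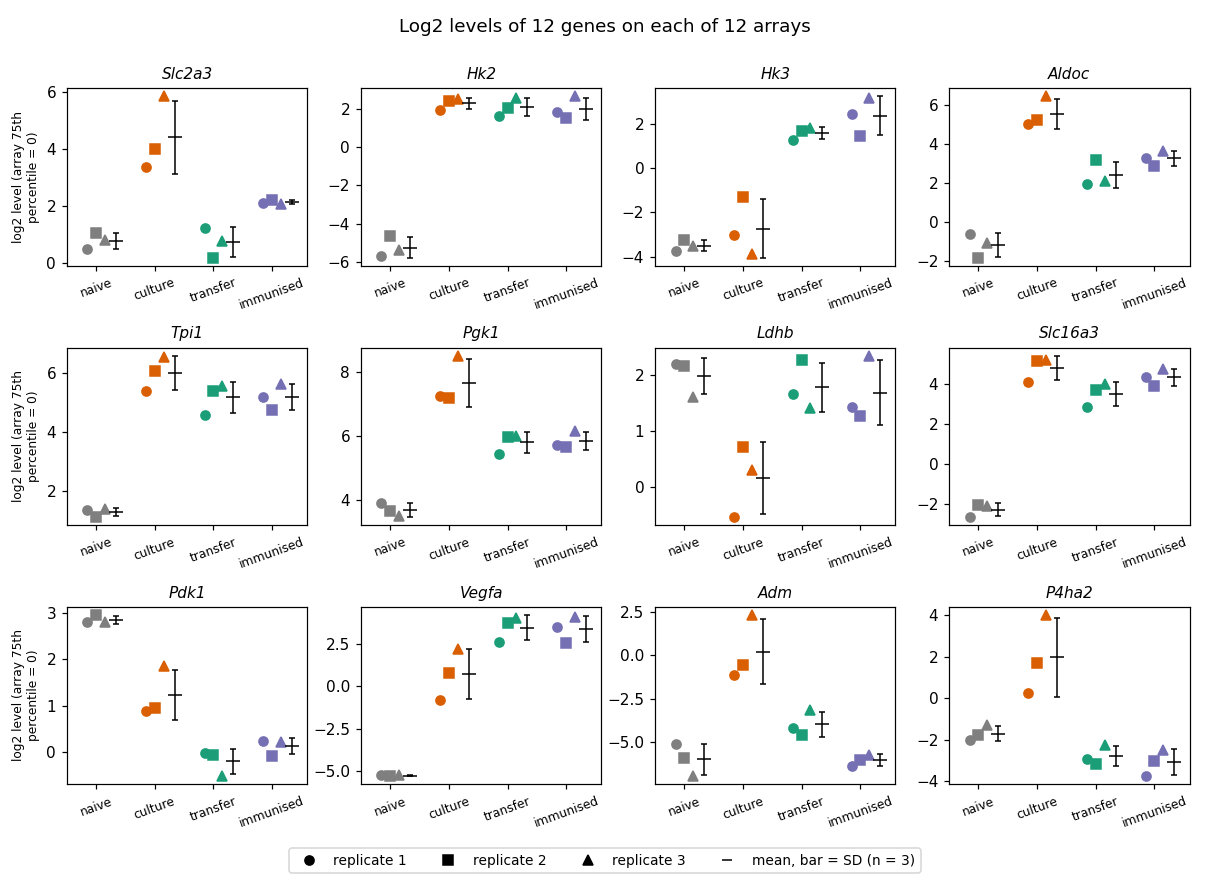
Points are the log2 levels of 12 genes on each array (y axis, with the array's 75th percentile at 0), by group along the x axis and by replicate as symbol; bars show the mean ± SD of 3 arrays. Hk2 and Slc16a3 are high in culture and in the CNS groups. Slc2a3, Adm and P4ha2 lie at or near the naive level in the transfer or immunised group. Vegfa and Hk3 are highest in the CNS groups.

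Of the 12 hypoxia genes, 9 rose in culture and none fell, with a median of 3.95, where 19.2% of all genes rose and 21.3% fell. In transfer against culture 7 fell and 1 rose, with 15.9% and 12.7% of all genes. In immunised against culture 5 fell and 1 rose, with 18.4% and 13.5% of all genes. Without the third culture array these counts were 9 and 0, 4 and 1, and 4 and 1. Against naive cells 6 were higher in each CNS group, with 20.5% of all genes higher in transfer and 19.9% in immunised cells.

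Vegfa, the main growth factor for blood vessels, differed from the rest. It had -5.23, -5.27 and -5.23 in naive, -0.78, 0.78 and 2.18 in culture, 2.61, 3.74 and 4.01 in transfer, and 3.49, 2.55 and 4.09 in immunised arrays. All CNS arrays lay above all culture arrays. On 1 naive array it was not well above background. The rise was 5.97 ± 0.66 in culture (limma adjusted p = 6.79e-05). Against culture, Vegfa was 2.73 ± 0.66 higher in transfer (limma adjusted p = 0.0121) and 2.65 ± 0.66 higher in immunised cells (limma adjusted p = 0.0122). Its second probe gave 3.25 from culture to transfer. The macrophage and monocyte genes were higher in these same samples, and their part was not tested.

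Adm, the vessel-widening peptide adrenomedullin, showed the opposite course. It had -1.11, -0.55 and 2.33 in culture and -4.15, -4.58 and -3.16 in transfer, and was not well above background in naive (-5.12, -5.89 and -6.94) or immunised arrays (-6.38, -6.03 and -5.70). The bound on dim arrays makes it at least 56.7-fold higher in culture than naive and at least 57.9-fold higher in culture than in immunised cells. The limma fit used the measured levels, not the bound (limma adjusted p = 0.00017 and 0.00026). Adm is counted among the members called higher in culture. It passed the filter through culture and transfer alone, so these 2 calls are no independent support. The lower bound sets the culture mean against the weakest signal well above background on each dim array, or against the gene's own level where that is higher. From culture to transfer the change was -4.19 ± 0.80 (limma adjusted p = 0.00337).

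P4ha2, which hydroxylates collagen and is induced in low oxygen, had -2.02, -1.80 and -1.30 in naive, 0.22, 1.67 and 4.01 in culture, -2.94, -3.16 and -2.24 in transfer, and -3.76, -3.03 and -2.52 in immunised arrays. Culture was highest, and all CNS arrays lay below all naive arrays, although that difference was not called (-1.08 ± 0.76 and -1.39 ± 0.76, limma adjusted p = 0.267 and 0.149). The fall from culture was -4.75 ± 0.76 in transfer (limma adjusted p = 0.0012) and -5.06 ± 0.76 in immunised cells (limma adjusted p = 0.000706). Its relative P4ha1 was called in no comparison.

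Egln3, an oxygen sensor that marks HIF for breakdown and is itself induced by HIF, had -2.12, -2.48 and -2.53 in naive, 2.67, 2.89 and 4.04 in culture, 0.80, 0.44 and 1.16 in transfer, and 0.49, 0.52 and 1.0 in immunised arrays. The 2 CNS groups overlapped and stood between naive and culture. It rose by 5.57 ± 0.34 in culture (limma adjusted p = 1.52e-06) and changed by -2.40 ± 0.34 from there to transfer (limma adjusted p = 0.000604). The sensor Egln1 was called in transfer against culture alone (-1.01 ± 0.33, limma adjusted p = 0.0425), and this was lost under 18 of 26 alternatives.

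Ddit4, the inhibitor of mTORC1 also called REDD1, peaked in culture. It had 4.08, 4.49 and 4.14 in naive, 7.17, 7.62 and 7.50 in culture, 5.41, 5.20 and 5.15 in transfer, and 5.25, 5.54 and 4.98 in immunised arrays. Culture was highest and naive lowest with no overlap, and the change from culture was -2.18 ± 0.20 in each CNS group. The mitophagy receptor Bnip3 rose by 5.20 ± 0.63 in culture and kept 3.45 ± 0.63 of difference from naive in transfer. Its relative Bnip3l had 3.39 and 3.88 on 2 culture arrays and 5.84 on the third, and was called in no comparison. Ndrg1, a stress gene induced in low oxygen, had 1.79, 2.79 and 5.68 in culture. It was 4.26 ± 0.76 above naive in culture and 3.14 ± 0.76 in transfer. Ero1l (now Ero1a), an oxidase of protein folding, rose by 4.22 ± 0.64 in culture. Its change of -2.02 ± 0.64 from there to transfer (limma adjusted p = 0.0383) was lost under 12 of 26 alternatives, among them leaving out the third culture array (adjusted p = 0.0647). Ankrd37 rose by 1.79 ± 0.38 in culture.

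**Figure D4:**
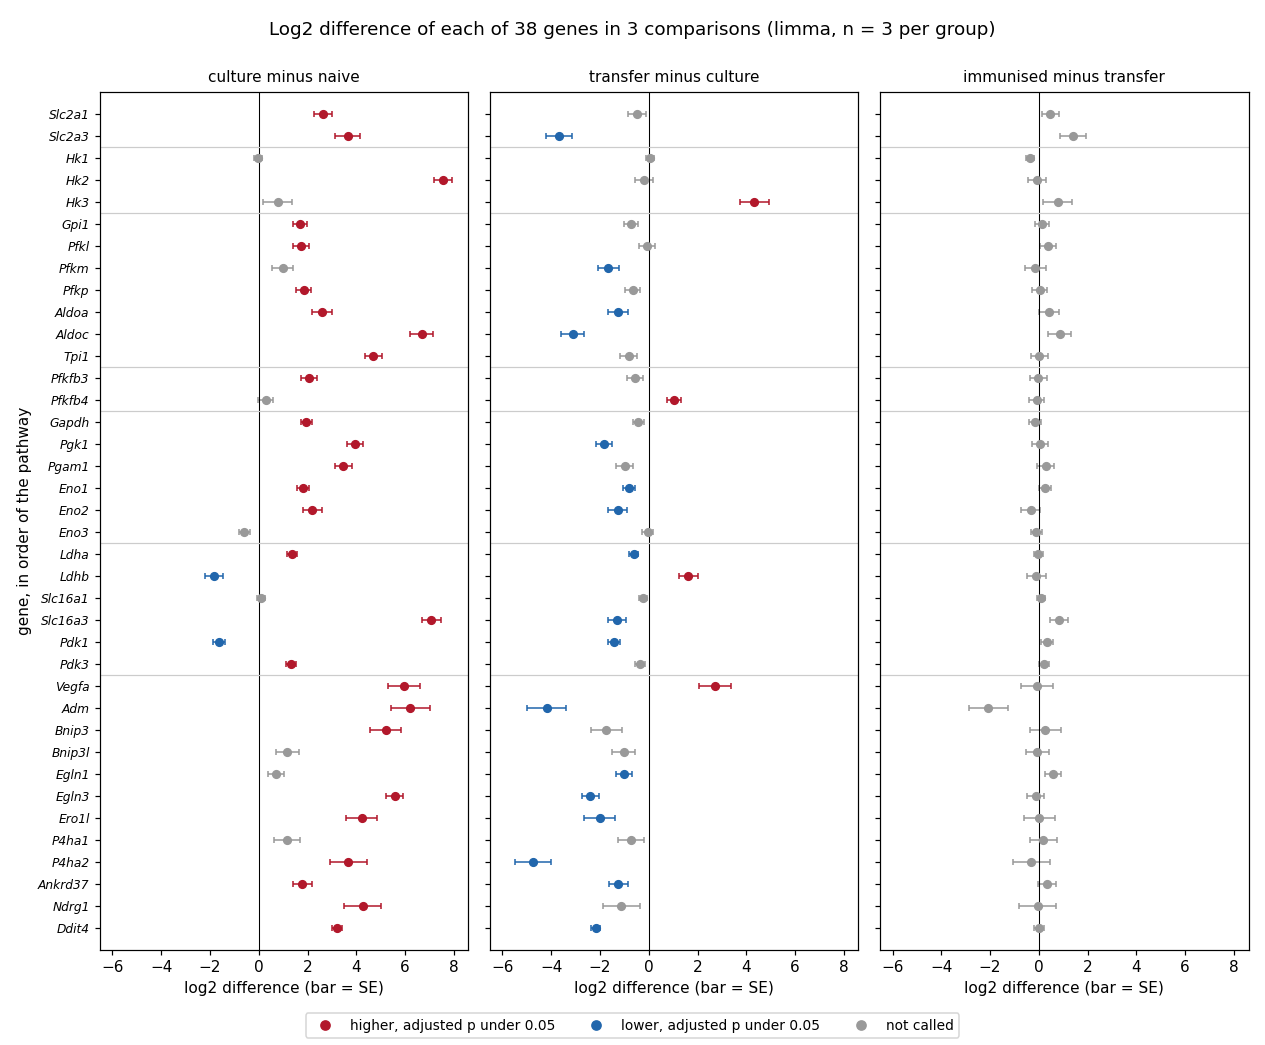
Points are log2 differences of the 38 genes (y axis, in order of the pathway) in culture against naive, transfer against culture and immunised against transfer, with bars for the SE of the limma fit (n = 3 per group). Red and blue mark the 27 higher and 2 lower genes on the left and the 4 higher and 17 lower in the middle, and all points on the right are grey.

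The 2 CNS groups were compared directly. No member was called in immunised against transfer (limma, n = 3 per group), where 1.82% of all genes were called higher and 1.37% lower. At an unadjusted p under 0.05 there were 3 members: Slc2a3, Hk1 and Adm. The members' median difference was 0.03. Neutrophil genes differed between these groups (6 of 11 higher in immunised, median 4.06), and their part was not tested. Scaled to the T cell core genes no member was called either. All genes called then numbered 1944, with 12.2% of them higher, against 595 and 57.1% otherwise. This does not show that the groups are alike: the 95% confidence intervals of single members reached from 0.36 to 1.77 on either side. For Hk2 the difference was -0.09 with an interval of -0.90 to 0.72. Slc2a3 was 1.40 higher in immunised cells with an interval of 0.25 to 2.55 (limma adjusted p = 0.167), and the groups did not overlap. By the bound on dim arrays, mean Adm was at least 3.18-fold higher in transfer than in immunised cells. No immunised array was well above background. Adm passed the filter through culture and transfer alone, so this bound is no independent support. The limma fit of its measured levels was not called (limma adjusted p = 0.181). Leaving out the third culture array brought Slc2a3 and Adm below the threshold. With limma's array weights Slc2a3, Slc16a3 and Egln1 were called higher and Hk1 and Adm lower.

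The regulators upstream were given by lists from the same pathways. Of 14 genes of the HIF pathway, 7 were higher and 0 lower in culture than naive, against 19.2% and 21.3% of all genes. In transfer, 4 were lower than in culture, against 15.9% of all genes. Hif1a, the oxygen-sensitive subunit, had 0.47, 0.57 and 0.39 in naive, 4.18, 4.51 and 4.19 in culture, 3.23, 3.16 and 3.46 in transfer, and 3.29, 3.35 and 3.38 in immunised arrays. It rose by 3.82 ± 0.15 in culture (limma adjusted p = 2.03e-07) and changed by -1.0 ± 0.15 from there to transfer (limma adjusted p = 0.00083), and the third culture array was not its highest. Its partner Arnt and the relative Epas1 were called in none of the 6 comparisons. Arnt2, a second such partner, was at least 7.50-fold higher in culture than naive. None of its naive arrays was well above background, so it passed the filter through later groups alone.

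Of 27 tested genes among the other hypoxia targets, 19 were higher in culture and none lower. Among them were Stc2, a secreted glycoprotein, at least 184-fold higher, and Bhlhe40, a transcription factor, with 6.34 ± 0.31. No naive array was well above background for Stc2, which passed the filter through later groups alone. Over all genes, 19.2% were called higher and 21.3% lower in culture. In transfer against culture 4 of the 27 were higher and 6 lower, with 12.7% and 15.9% of all genes called. The collagen-modifying enzyme Plod2 changed by -3.27 ± 0.36 and the mitochondrial kinase Ak4 by -3.07 ± 0.60, while Hmox1, heme oxygenase, rose by 2.25 ± 0.52. Stc2 and Plod2 were lower in immunised than transfer cells, by -3.45 ± 0.50 (limma adjusted p = 0.00482) and -2.23 ± 0.36 (limma adjusted p = 0.00923), and Rora was higher by 1.72 ± 0.36.

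Of 10 further glycolysis genes tested, 5 were higher and 1 lower in culture, against 19.2% and 21.3% of all genes. The transporter Slc2a6 had -4.14, -4.00 and -3.58 in naive and 2.55, 3.30 and 2.51 in culture, a rise of 6.70 ± 0.26. Pkm2, pyruvate kinase under its older name, rose by 2.96 ± 0.24 and changed by -1.30 ± 0.24 from there to transfer. Of 18 growth regulators of the pathway, 4 were higher and 8 lower in culture, against 19.2% and 21.3% of all genes. Mycn, a relative of Myc, was at least 38.1-fold higher in culture than naive, with -0.49, -2.23 and 1.54 on the culture arrays. It passed the filter on dim probes through culture alone, so its call is no independent support. Irf4 rose by 4.22 ± 0.36. Tsc1 and Tsc2, brakes on mTORC1, changed by -1.24 ± 0.17 and -1.80 ± 0.19.

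Neighbouring routes were counted in the same way. Against 19.2% of all genes called higher and 21.3% lower, of 8 pentose phosphate genes, 4 were higher and 1 lower in culture, with Tkt, transketolase, at 1.17 ± 0.29. Of 24 genes of pyruvate entry and the citrate cycle, 4 were higher and 5 lower in culture, with a median of -0.01. Pcx, pyruvate carboxylase, rose by 3.01 ± 0.49 and Dlat, part of pyruvate dehydrogenase, changed by -1.50 ± 0.23.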

How the data were processed

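Total RNA of 12 samples (1 colour, Cy3) was read with Agilent Feature Extraction (10.7.3.1, per the file headers). The deposited intensity gProcessedSignal is background-subtracted by that software, per the file headers. A deposited value table holds intensity values too, on a linear scale with column medians of 50.4 to 51.2, which followed each array's scanner values (correlation 0.998 to 1) and have no direction; the method that equalised them is not given in the sources used here. Control and outlier-flagged spots were left out, spots of 1 probe averaged, log2 taken and each array's 75th percentile subtracted. A gene is its brightest probe. Genes whose signal exceeded background in every array of some group were fitted with limma 3.58.1 in R 4.3.3 over all 12 arrays, with Benjamini-Hochberg adjustment. The number of arrays limits the precision. On simulated data for culture against naive (18646 genes), 23% of 200 genes changed by log2 1 and 81% of those changed by log2 2 were recovered. Only these 200 genes were changed there, while 7544 were called in the real comparison. The Benjamini-Hochberg adjustment depends on that share, so these rates are not the sensitivity of the real fit. Probe positions are those of the array files. Members and gene lists were chosen with earlier results of these data known. Nothing says whether samples within an experiment came from separate animals or cultures, so p-values measure the spread between these samples. Per-array values were given for Hk2, Slc16a3, Aldoc and Vegfa, for the member of each role with the widest range, and for the 5 largest called rises and falls in each comparison. Of each pathway list, up to 4 called genes with the largest differences were eligible. Per-array values of other genes (Slc2a1, Pfkm, Ddit4, Ndrg1, Bnip3l, Hif1a, Slc2a6, Mycn) were chosen after their values were seen. Figures were drawn with matplotlib 3.10.9. A gene of a pathway list that the rule would name is not reported here.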

Additional observations from a re-analysis of the deposited data

How the results depend on the processing

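Counts of members called higher in culture than naive were 27 to 31 with each array left out, and lower 2 to 3. The number of all genes called changes with the setting too. Its share is not given for each setting, so the counts in this section are no result about the members. With the adjusted p under 0.01, 8 members were lower and 1 higher in transfer than culture, 1 higher in immunised than culture, and 1 lower than naive in each CNS group. A 2-fold minimum also left 1 lower than naive in each. With only the 6 arrays compared, 8 were lower and 2 higher in transfer than culture, 4 lower in either CNS group than naive, and 1 higher and 1 lower in immunised than transfer. Without the filter on dim probes, 10 were lower in transfer than culture and 1 lower in transfer than naive, and the median of each array also gave 1 there. Array weights gave 5 lower in immunised than naive, and 3 higher and 2 lower in immunised than transfer. Scaling to the T cell core genes gave 7 higher and 6 lower in transfer than culture and 1 lower than naive in each CNS group. It turned Eno1 (0.11) and Ldha (0.29) in transfer against culture and Eno3 (0.33) in transfer against naive. The cause of these shifts was not tested. The median of each array moved the median of all genes by -0.12 between transfer and culture.

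Leaving out single arrays gave 9 to 24 members lower and 3 to 4 higher in transfer than culture, and 10 to 20 lower and 1 to 4 higher in immunised than culture, with 1 higher without immunised replicate 3 and 20 lower without culture replicate 1. Against naive, transfer gave 22 to 27 higher and 1 to 3 lower, and immunised 23 to 26 higher and 1 to 5 lower. Immunised against transfer gave 0 to 1 in each direction. Over all genes, same-numbered arrays had correlated deviations of -0.198 to 0.205 over 18 pairs, 4 above 0.1, so the numbers were not taken to pair the samples. Among the members, replicate 3 was most often the highest array in culture, transfer and immunised cells (34, 21 and 28 of 38). With the replicate block, which is also the slide, 1 member was lower in transfer than naive instead of 2, and 24 were higher in immunised than naive instead of 25. All other counts were the same. Of 119 called differences under 26 alternatives, 2921 of 3083 values kept direction and call, 159 lost the call and 3 turned, all of the latter under the T cell scaling. Signal over background limits Adm, Hk2 and Vegfa in naive arrays.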
